A study of Homo sapiens with 4 samples.

Results

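Receptor tyrosine kinases are cell surface receptors whose intracellular part carries a kinase that adds phosphate to tyrosines. The group examined here was a written list of 51 receptor genes. The rule that picks them uses gene names and no array value, although the list was drawn up with earlier results of these arrays known, and 50 of them were matched to the array among 17214 named genes. EPHA6 was not matched and was not analysed here. RNA came from HEK293, an adenovirus-transformed line of fetal kidney origin that serves as a common laboratory host for introduced genes. The cells were untreated and grown in serum-containing medium, so there was 1 group, with 4 replicates that the labels call biological and that the study's methods trace to separate plates and RNA extractions. The study used these arrays to list which signalling genes are transcribed under basal conditions, and the design holds no second condition to compare.

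In the usual course of signalling a ligand outside the cell brings a pair of receptors together, each kinase phosphorylates the other's tail, and adaptor proteins that bind the phosphorylated tyrosines pass the signal to the Ras-MAPK and PI3K-AKT pathways. The families differ in their ligands: growth factors such as EGF, insulin, PDGF, VEGF and FGF are secreted, ephrins sit on the neighbouring cell's membrane, and discoidin domain receptors bind collagen. HEK293 cells are known to carry IRS4, a docking protein for the insulin and IGF-1 receptors.

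Values were read against a baseline. On each array the study's baseline is the mean plus 2 SD of 11 control genes, of which 10 were matched here. The study chose them as seminal proteins with little chance of expression in its lines, but 2 of them gave signal near the baseline, as described further on. A gene's distance is its log2 value minus that baseline. A gene is called detected where its mean distance over the 4 arrays is above 0. Probes differ in affinity, so distances of different genes do not rank their transcripts, and in RNA from a whole culture fewer expressing cells and less RNA per cell cannot be told apart.

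HEK293 cells gave signal above the baseline for 26 of the 50 receptors, a share of 52.0% against 52.7% of all named genes. The receptors farthest above it were the IGF-1 receptor IGF1R at 3.38 ± 0.38 log2 units (SD, n = 4), the planar polarity receptor PTK7 at 3.33 ± 0.45 and the Wnt5a receptor ROR1 at 2.91 ± 0.87. EPHA2, ERBB2, EPHB4, DDR1, RYK, INSR, TYRO3, KIT, EPHA7 and MERTK had mean distances between 2.04 and 2.62, and MET stood at 1.79 ± 0.77. At the other end were MUSK at -3.61 ± 0.31, EPHA10 at -3.40 ± 0.26 and the angiopoietin receptor TEK at -3.31 ± 0.35.

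The count depended on the rule that was used. Of the 50 receptors 17 were above the baseline on all 4 arrays, where the share of all named genes was 45.0%. The same number, 17, passed a one-sided limma test against the baseline at a Benjamini-Hochberg adjusted p under 0.05, a call made for 45.9% of all named genes. That test gave every gene the same standard error, 0.351. The limma p-values here therefore follow the mean distance alone and do not reflect the SD printed beside it. For 15 receptors every probe was above the baseline on average, against 34.1% of all named genes. A further 18 receptors were below it on every array and 15 fell on both sides. Of all 17214 named genes 6854 were below it on every array and 7754 above it on every array. The median distance of the 50 receptors was 0.17 log2 units and that of all named genes 0.26. By each of these detection rules the receptors' share was below that of all named genes, by less than 1 percentage point for detection by the mean. No test of these differences was made.

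**Figure D1:**
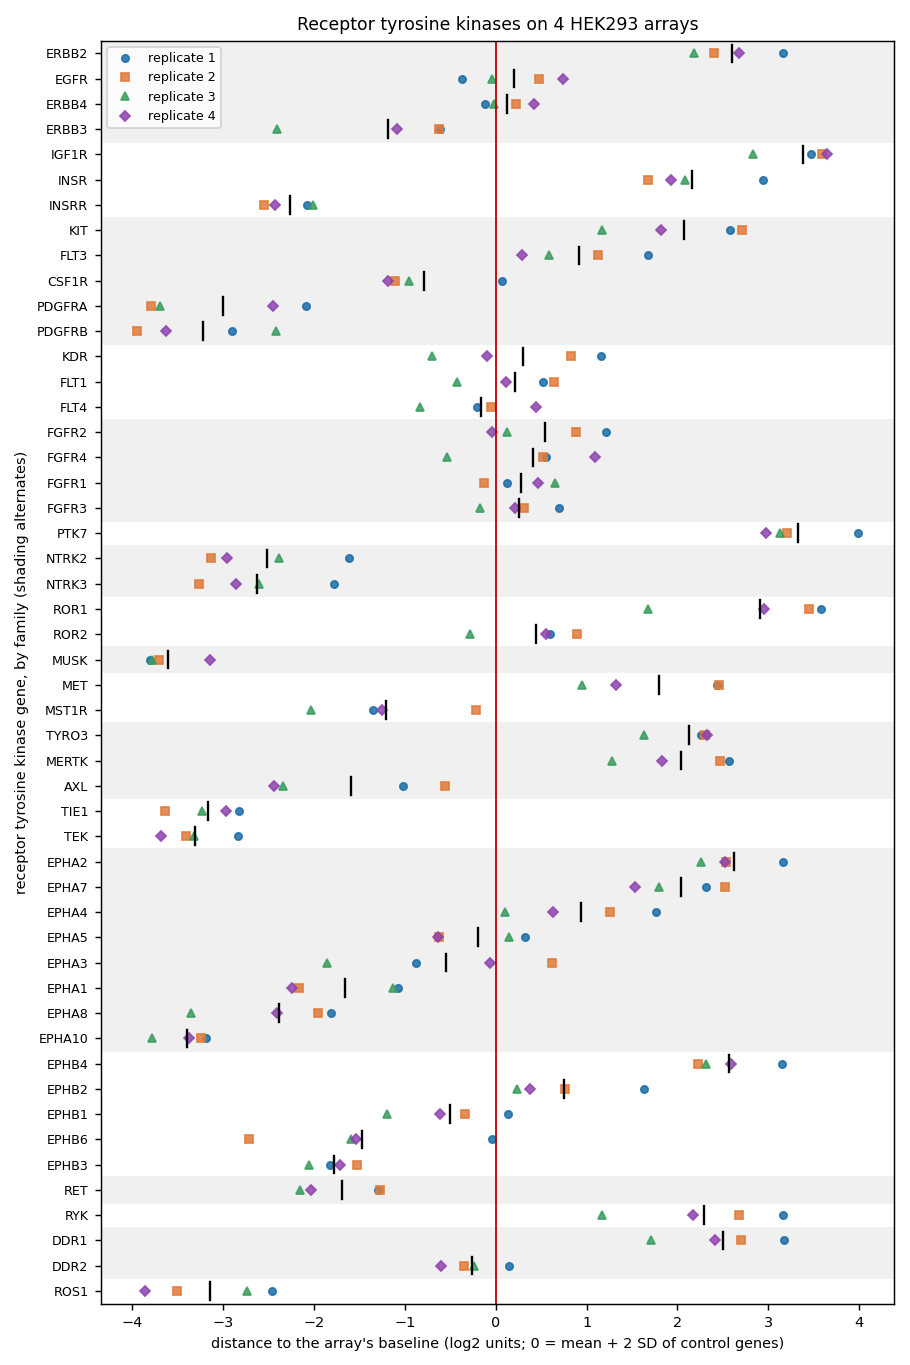
Distance to the array's baseline in log2 units (horizontal axis) for 50 receptor tyrosine kinases grouped by family, with 1 symbol per replicate and a black tick at the mean of 4 arrays. The red line at 0 is the baseline, and 17 receptors, from IGF1R at 3.38 to EPHB2 at 0.75, lie to its right on all 4 arrays.

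The promoters of the receptors at the ends of this range show how they differ in sequence. These are the 250 bases before the annotated start of the 2 receptors with the largest and of 2 of the receptors with the smallest mean distance, from RefSeq on GRCh38.p14, all on the plus strand, 5′ to 3′, with each CpG dinucleotide in capitals. IGF1R (chr15:98648289-98648538) holds 48 CpG, PTK7 (chr6:43076064-43076313) holds 24, MUSK (chr9:110668541-110668790) holds 3 and TEK (chr9:27108975-27109224) holds 5.
IGF1R: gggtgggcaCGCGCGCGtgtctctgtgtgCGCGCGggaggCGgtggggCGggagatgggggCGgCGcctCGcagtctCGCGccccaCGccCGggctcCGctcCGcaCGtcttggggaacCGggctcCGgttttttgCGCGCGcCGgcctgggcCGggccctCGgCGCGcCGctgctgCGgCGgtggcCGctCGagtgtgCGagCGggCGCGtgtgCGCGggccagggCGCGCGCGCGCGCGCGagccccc
PTK7: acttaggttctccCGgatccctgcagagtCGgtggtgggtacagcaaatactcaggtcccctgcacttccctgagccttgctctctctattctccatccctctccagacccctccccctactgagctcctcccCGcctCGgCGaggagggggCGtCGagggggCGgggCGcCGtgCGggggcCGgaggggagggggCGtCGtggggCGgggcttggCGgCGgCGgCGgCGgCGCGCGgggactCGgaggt
MUSK: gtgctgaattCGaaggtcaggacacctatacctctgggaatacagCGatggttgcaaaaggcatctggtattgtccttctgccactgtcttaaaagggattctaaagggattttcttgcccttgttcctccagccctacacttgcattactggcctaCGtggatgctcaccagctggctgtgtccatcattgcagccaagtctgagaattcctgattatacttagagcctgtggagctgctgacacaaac
TEK: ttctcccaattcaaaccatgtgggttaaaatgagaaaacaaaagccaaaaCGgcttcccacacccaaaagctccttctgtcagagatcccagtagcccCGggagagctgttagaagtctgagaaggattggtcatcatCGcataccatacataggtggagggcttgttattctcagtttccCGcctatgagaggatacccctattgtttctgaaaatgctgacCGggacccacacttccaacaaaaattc

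Promoters were listed for 45 of the 50 receptors, and where a gene had several the one nearest its outer 5′ end was taken. The ratio of observed to expected CpG, which corrects for base composition, was 1.18 in IGF1R, 0.754 in PTK7, 0.205 in MUSK and 0.377 in TEK. Among the 25 detected receptors with a promoter the median ratio was 0.848, and 24 of them had a ratio above 0.6, or 96%. Among the 20 that were not detected the median was 0.532, and 10 had a ratio above 0.6, or 50%. All named genes with a promoter differed in the same direction, with medians of 0.839 for 7587 detected and 0.476 for 6219 not detected genes and shares above 0.6 of 84.9% and 42.1%.

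Single receptors departed from this. DDR1 was detected with a ratio of 0.275, although 8 promoters are listed for it and only 1 was read. Several are listed for other receptors as well, such as 2 each for PTK7, TEK and RET, and 1 was read for each. RET, EPHA8 and NTRK3 were not detected with ratios of 1.04, 0.978 and 0.887. The GC box letters GGGCGG, searched on both strands, were present in 75.6% of the receptors' promoters and in 57.4% of those of all genes, and TATAAA was present in 2 of 45 receptors' promoters, FLT1 and DDR2, and in 9.02% of those of all genes. The GC box contains a CpG of its own, so these 2 features overlap.

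**Figure D2:**
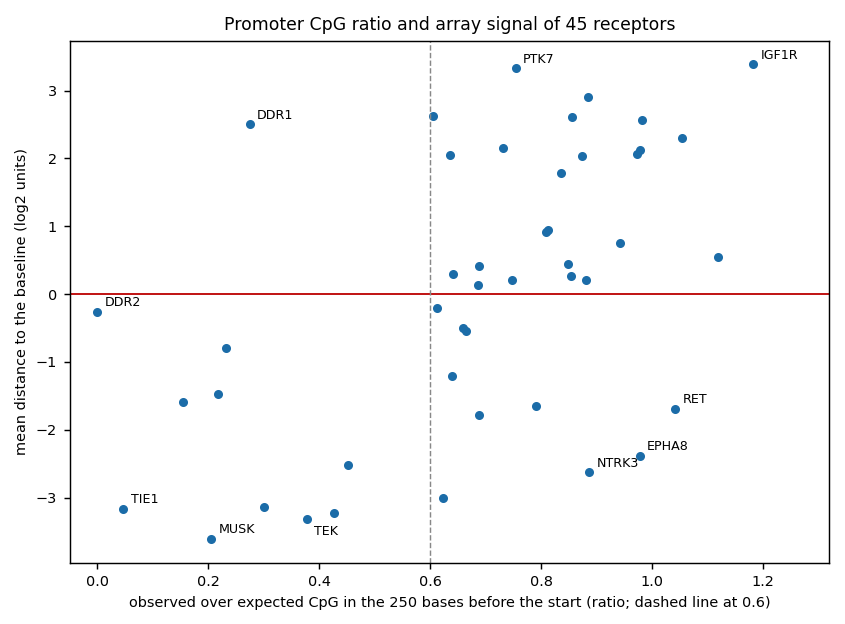
Ratio of observed to expected CpG in the 250 bases before the start (horizontal axis) against the mean distance to the baseline in log2 units (vertical axis), 1 point for each of 45 receptors. The red line is the baseline and the dashed line a ratio of 0.6, to the left of which DDR1 at 0.275 is the only detected receptor.

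The insulin receptor family binds insulin and the insulin-like growth factors and signals in metabolism and growth. IGF1R, the receptor for IGF-1, lay 3.47, 3.59, 2.83 and 3.65 log2 units above the baseline on replicates 1 to 4. INSR, the insulin receptor, lay 2.94, 1.68, 2.09 and 1.93 above it. Both were above the baseline on every array and on every probe. INSRR, an insulin receptor relative known as a sensor of alkaline pH, was below it on all 4 arrays with a mean of -2.27 ± 0.26. Of the ligands listed for the family only IGF2, the fetal growth factor, had a mean above 0, at 0.09 ± 1.15, with 1.41 and 0.65 on replicates 1 and 3 and -1.13 and -0.57 on replicates 2 and 4. IGF2 was therefore above the baseline on 2 arrays and below it on the other two. The docking protein IRS4 lay 3.82 ± 0.32 above the baseline on all 4 arrays.

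In the ErbB family, the EGF receptor and its relatives, ERBB2 was the only one above the baseline on all 4 arrays. ERBB2, which has no ligand of its own and pairs with the other members, gave 3.16, 2.40, 2.18 and 2.68 log2 units. EGFR gave -0.37, 0.47, -0.04 and 0.74, with a mean of 0.20 ± 0.50, and ERBB4, a neuregulin receptor, a mean of 0.13 ± 0.24. The 2 receptors were detected by their means alone, with limma adjusted p-values of 0.558 and 0.695. ERBB3, a neuregulin receptor with little kinase activity, was below the baseline on all 4 arrays, at -1.18 ± 0.85.

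EGFR was measured by 4 targets, each a separate RefSeq transcript with its own probes, and they did not agree on detection. A pair of them was above the baseline on all 4 arrays, with means of 0.88 ± 0.21 and 1.34 ± 0.46 log2 units, and the other pair had means of -0.82 ± 1.06 and -0.60 ± 0.53. Taking the highest target of each gene in place of the mean over targets put EGFR at 1.31 with a limma adjusted p of 0.000331, and taking the median of the log2 probe values put it at -0.51. Transcripts of 1 gene can share exons or differ in them, and which exons each probe reads was not examined here. Of the ligands, heparin-binding HBEGF was above the baseline on all 4 arrays, at 1.78 ± 0.90, and so was NRG3, a neural neuregulin that binds ERBB4, at 1.42 ± 0.36. The NRG3 call rested on the summary of probes, and its distance was 0.59 with the mean of log2 probe values (limma adjusted p 0.111) and 0.28 with their median (0.419). NRG4, the other detected ligand of ERBB4, stood at 0.27 ± 0.82 and was above the baseline on 2 arrays.

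The PDGF receptor family holds receptors best known from mesenchyme and blood-forming cells. KIT, the stem cell factor receptor, lay 2.58, 2.71, 1.17 and 1.82 log2 units above the baseline, with all probes above it. FLT3, a receptor of early blood progenitors, lay 1.67, 1.13, 0.58 and 0.29 above it, with a limma adjusted p of 0.0103. The FLT3 call was lost without replicate 1 (0.0594) or replicate 2 (0.0605) and on replicates 3 and 4 alone, where the mean was 0.44 (0.234). CSF1R, the macrophage colony-stimulating factor receptor, had a mean of -0.79 ± 0.58 and was above the baseline on replicate 1 alone, at 0.07. PDGFRA and PDGFRB, receptors of mesenchymal cells, were below it on every array and every probe, at -3.00 ± 0.86 and -3.22 ± 0.69. KITLG, the ligand of KIT, had a mean of 0.48 ± 1.04, and PDGFC, a ligand of PDGFRA, one of 1.16 ± 0.64 that was above the baseline on all 4 arrays.

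Blood cell markers were measured beside KIT and FLT3. None of 6 haematopoietic markers was detected, with mean distances from -3.50 for the leukocyte phosphatase PTPRC to -1.01 for CORO1A, and all 6 were below the baseline on every array.

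The 3 VEGF receptors all lay within 1 SD of the baseline. KDR, the main VEGF receptor of endothelium, gave 1.16, 0.83, -0.70 and -0.09 log2 units, so that replicates 1 and 2 were above the baseline and replicates 3 and 4 below it. Of its 3 probes 1 was above the baseline on average, at 1.48, and the lowest was at -2.90. FLT1, a high-affinity VEGF receptor, had a mean of 0.21 ± 0.48, with its 3 probes between 0.12 and 0.26. FLT4, the lymphatic receptor for VEGF-C, had a mean of -0.16 ± 0.53. The limma adjusted p-values were 0.393 for KDR and 0.544 for FLT1. TIE1 and TEK, the endothelial receptors of the angiopoietin system, were below the baseline on every array and probe, at -3.17 ± 0.36 and -3.31 ± 0.35.

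Endothelial markers were low beside them. Of 6 such genes, 5 had mean distances from -3.50 to -1.53, and EGFL7 was detected at 0.31 ± 0.55. On the ligand side VEGFB lay at 1.55 ± 0.79 on 4 arrays, VEGFA at 1.24 ± 1.20 on 3 arrays and VEGFC at 0.69 ± 0.50 on 4 arrays. The co-receptor neuropilin NRP1 lay 2.41 ± 0.35 above the baseline on all 4 arrays, and NRP2 had a mean of 0.42 ± 0.33 on 3 arrays with a limma adjusted p of 0.244, or 2.77 with the highest target of each gene.

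FGF receptors bind fibroblast growth factors together with heparan sulfate. All 4 were detected by their means and none on all 4 arrays, and none passed the limma test. FGFR2 had a mean of 0.55 ± 0.60 log2 units, with 1.22, 0.88, 0.13 and -0.04 on the 4 replicates. FGFR4 had one of 0.41 ± 0.68, FGFR1 one of 0.28 ± 0.35 and FGFR3 one of 0.26 ± 0.35. Their limma adjusted p-values ran from 0.127 for FGFR2 to 0.457 for FGFR3. With the median of log2 probe values FGFR3 stood at 0.76 (limma adjusted p 0.0251) and FGFR4 at 0.77 (0.0332), but FGFR1 at -0.27. With the mean of log2 probe values FGFR1 stood at -0.14 and FGFR3 at -0.17. With a baseline of mean plus 3 SD all 4 were below it, from -0.77 for FGFR2 to -1.06 for FGFR3. On replicates 1 and 2 alone FGFR2 stood at 1.05 (limma adjusted p 0.0247). On 2 and 4 alone, a pair chosen after seeing the data, FGFR4 stood at 0.81 (0.02), and on 1 and 3 alone at 0.006. Each of the 4 was above the baseline on 3 arrays. FGFR1 rested on a single probe at 1.41, with the others at -0.75 and -2.10. The lowest probe of FGFR3 lay at -3.05. FGF9, a ligand of FGFR3, lay at 1.03 ± 0.86 and was the only detected FGF among those listed. The FGF9 call was lost without replicate 1 (limma adjusted p 0.0581). The klotho co-receptors KL and KLB were below the baseline on every array, at -3.44 ± 0.35 and -2.85 ± 0.41.

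**Figure D3:**
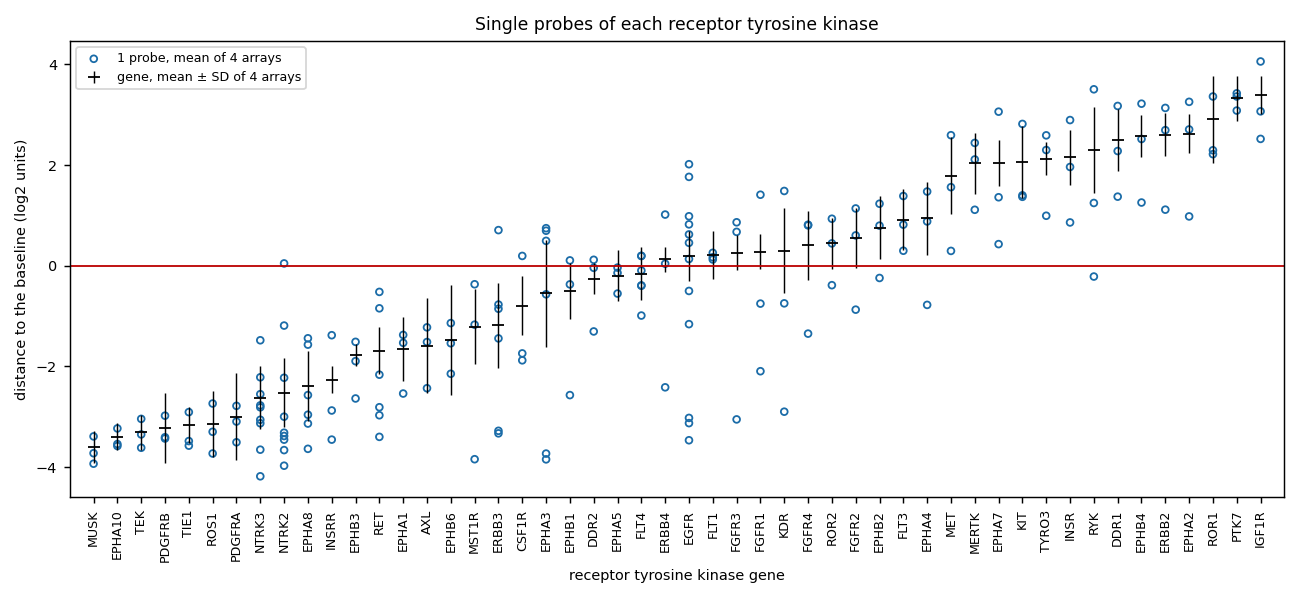
Distance to the baseline in log2 units (vertical axis) of every probe of 50 receptors, as circles that are means of 4 arrays, with each gene's mean ± SD over 4 arrays as a black cross and bar. KDR and FGFR1 lie above the red baseline through 1 probe each, at 1.48 and 1.41, whereas the 3 probes of PTK7 lie between 3.08 and 3.42.

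Several receptors bind Wnt proteins or take part in planar cell polarity, and 4 of them were detected. PTK7 lay 3.99, 3.20, 3.13 and 2.98 log2 units above it, with its probes between 3.08 and 3.42. ROR1 lay 3.57, 3.44, 1.67 and 2.95 above it. RYK, an atypical Wnt receptor, lay 3.17, 2.67, 1.17 and 2.17 above it. In ROR1 and RYK replicate 3 was the lowest, and in RYK 2 of 3 probes were above the baseline. ROR2, a second Wnt5a receptor, had a mean of 0.44 ± 0.51 and was above the baseline on 3 arrays, with a limma adjusted p of 0.216. The listed ligand WNT5A varied from -1.06 on replicate 3 to 1.75 on replicate 2, with a mean of 0.52 ± 1.16.

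MUSK, the muscle receptor that clusters acetylcholine receptors at the synapse, was below the baseline on all 4 arrays, at -3.81, -3.70, -3.78 and -3.14 log2 units. Its activator agrin, AGRN, lay 2.90 ± 0.62 above the baseline, and the co-receptor LRP4 1.92 ± 0.93, both on all 4 arrays. For this signalling unit the ligand and the co-receptor were detected and the kinase was not.

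MET, the receptor of hepatocyte growth factor, lay 2.43, 2.46, 0.94 and 1.33 log2 units above the baseline, and its ligand was not among the detected ones. Its relative MST1R, the receptor of macrophage-stimulating protein, had a mean of -1.21 ± 0.75. Of the TAM receptors, which recognise phosphatidylserine on dying cells through bridging proteins, TYRO3 lay 2.26, 2.30, 1.63 and 2.32 above the baseline and MERTK 2.57, 2.47, 1.28 and 1.83. AXL, the remaining one, was below it on every array, at -1.59 ± 0.94. The bridging ligand PROS1 lay at 2.18 ± 0.74 on 4 arrays. GAS6 lay at 1.27 ± 1.04 on 3 arrays, with 1 of its 3 probes above the baseline, and at 0.57 with the mean of log2 probe values (limma adjusted p 0.129) or 0.11 with their median (0.720).

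Ephrin receptors guide cell positioning and axons and are the largest family, with 13 measured here, of which 5 were detected, or 38.5% against 52.7% of all named genes. EPHA2 lay 3.16, 2.54, 2.26 and 2.52 log2 units above the baseline. EPHB4, an ephrin-B2 receptor of veins, lay 3.15, 2.23, 2.31 and 2.59 above it, and EPHA7, a neural ephrin-A receptor, 2.32, 2.53, 1.80 and 1.53. These 3 were above it on every array and every probe. EPHA4, which binds ephrins of both classes, had a mean of 0.94 ± 0.73 and a limma adjusted p of 0.00853, and EPHB2 a mean of 0.75 ± 0.63 and one of 0.0353. The EPHA4 call was lost without replicate 1 (0.0622) or replicate 2 (0.0648). That of EPHB2 was lost without replicate 1 (0.187), replicate 2 (0.0972) or replicate 4 (0.0554). On replicates 3 and 4 alone neither passed, with means of 0.37 (0.326) for EPHA4 and 0.31 (0.392) for EPHB2.

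The other ephrin receptors had means below 0. EPHA5, EPHB1 and EPHA3 were near the baseline at -0.20 ± 0.51, -0.50 ± 0.56 and -0.55 ± 1.07. EPHB6, EPHA1, EPHB3, EPHA8 and EPHA10 were below it on all 4 arrays, from -1.47 ± 1.10 for EPHB6 to -3.40 ± 0.26 for EPHA10. The 2 targets of EPHA3 stood apart, with means of 0.67 ± 1.20 and -1.76 ± 1.16. With targets averaged, EPHA3 was also the receptor with the widest difference between array pairs, described further on. Among ephrins, EFNB2, EFNB3 and EFNB1 lay at 2.76 ± 0.96, 2.65 ± 0.93 and 1.34 ± 0.51, each on all 4 arrays, and EFNA1 and EFNA3 both at 0.32 ± 0.46.

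The discoidin domain receptors, which bind collagen, were split. DDR1, the epithelial one, lay 3.17, 2.70, 1.71 and 2.41 log2 units above the baseline, and DDR2, the mesenchymal one, had a mean of -0.26 ± 0.31 with 1 array above. The neurotrophin receptors NTRK2 and NTRK3 were below the baseline on all 4 arrays, at -2.52 ± 0.68 and -2.63 ± 0.62. NGFR, a neurotrophin co-receptor without a kinase, lay above it on all 4 arrays at 1.04 ± 0.67, with a limma adjusted p of 0.00361 that became 0.0612 on replicates 3 and 4 alone. RET, the receptor of GDNF-family ligands, lay at -1.69 ± 0.47, below the baseline on every array, and of its 4 co-receptors GFRA1 had a mean of 0.67 ± 0.22 with a limma adjusted p of 0.0613. The other co-receptors GFRA2, GFRA3 and GFRA4 had means of -1.07 ± 0.52, -1.59 ± 1.52 and -3.51 ± 0.13. ROS1, an epithelial receptor, lay at -3.14 ± 0.65. Of the 24 receptors that were not detected, 17 had no probe above the baseline and 7 had at least 1.

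Of 41 receptors with a listed ligand, 23 were detected, and 18 of these had at least 1 detected ligand. The remaining 5, with no detected ligand among those listed for them, were FLT3, FGFR1, FGFR2, FGFR4 and MET. These counts depend on the written pairings, in which the detected FGF9 is listed for FGFR3 alone. Pairings outside the list were not counted, and the counts were not repeated with another baseline. For 8 of the 18 (INSR, IGF1R, KIT, ROR1, ROR2, RYK, EPHA2 and EPHA7) the detected ligands were IGF2, KITLG, WNT5A, EFNA1 or EFNA3 alone. None of these ligands passed the limma test, with adjusted p-values from 0.145 to 0.766, and each changed sign under at least 1 alternative. The other 10 had a ligand that passed it. Among the 18 receptors with a listed ligand that were not detected, 10 had at least 1 detected ligand and 5 had one that passed limma. For comparison, 52.7% of all named genes were detected and 45.9% passed limma, and receptors with several listed ligands have more chances to meet one. The arrays measure RNA only and cells in serum also meet ligands from the medium.

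Further along the pathway the lists were detected to different extents. Of 68 ligand genes 19 were detected and 12 stood above the baseline on every array. The number detected was 8 with a baseline of mean plus 3 SD and 41 without the control genes SPATA5 and SPATA13. The ligands' median distance was -1.62 log2 units. Of 14 co-receptor genes 8 were detected, with a median of 0.30, and the number was 4 with 3 SD and 11 without those controls. Of 24 adaptor genes 20 were detected and 18 passed the limma test, with a median of 1.75. The farthest above the baseline were the phosphatase PTPN11 at 4.26 ± 0.65, CRK at 3.93 ± 0.51 and IRS4. The 4 adaptors not detected were SHC4 at -3.15 ± 0.41, SHC3 at -1.34 ± 0.27, GAB1 at -0.95 ± 0.54 and GRB7 at -0.39 ± 0.66.

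Every one of the 18 genes in the Ras-MAPK list was detected, 17 without an array below the baseline, with a median distance of 2.43 log2 units. The exchange factor SOS1 lay at 4.43 ± 0.43 and the kinase MAP2K1 at 4.25 ± 0.55. Of 14 genes of the PI3K-AKT list 12 were detected, with a median of 2.10. AKT1 lay at 4.44 ± 0.55, MTOR at 4.23 ± 0.76 and AKT2 at 2.58 ± 1.04, whereas the leukocyte PI3K subunit PIK3CD at -0.70 ± 0.46 and the mTOR partner RPTOR at -0.65 ± 0.33 were below the baseline. Of 19 negative regulators 12 were detected, with a median of 1.22, led by the receptor phosphatase PTPRF at 3.94 ± 0.81 by LRIG1, which promotes receptor degradation, at 3.36 ± 0.43 and by its relative LRIG3 at 2.75 ± 0.42. Beside these counts, 52.7% of all named genes were detected, 45.0% were above the baseline on all 4 arrays and 45.9% passed limma, and the lists are given as a description.

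**Figure D4:**
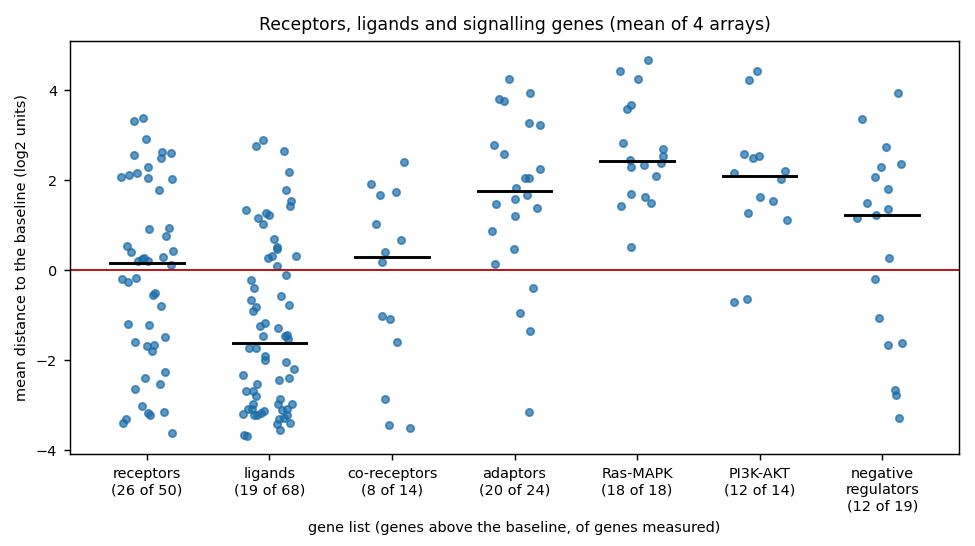
Mean distance to the baseline over 4 arrays in log2 units (vertical axis) for the receptors and 6 lists of genes in their pathways, 1 point per gene and a black bar at each list's median, with the number detected under each name. All 18 Ras-MAPK genes lie above the red baseline, and 19 of 68 ligands do.

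The spread between arrays had a shape that bears on the receptors near the baseline. The baseline itself was 9.47, 9.94, 10.69 and 10.32 log2 units on replicates 1 to 4. Of the 50 receptors 28, 26, 20 and 25 were above it on those arrays. The shares of all named genes above it were 58.1%, 54.2%, 47.4% and 50.2%. Distances were larger on replicates 1 and 2 than on 3 and 4 for 43 of 50 receptors and for 87.1% of all named genes, while levels without the baseline were larger there for 17 receptors and for 45.1% of all genes. In 14 receptors the mean distance was within 1 SD of 0, and 9 of these were detected. No such count was made for all named genes.

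Replicates 1 and 3 also resembled each other, as did 2 and 4. Pearson's r across all named genes, which are not independent replicates, was 0.971 and 0.977 for these pairs and 0.949 to 0.959 for the other pairs of arrays. Levels of 23 receptors, 46.0%, did not overlap between replicates 1 and 3 and replicates 2 and 4, against 40.7% of all named genes. EPHA3 was 1.69 log2 units higher on replicates 2 and 4 and MST1R 1.01 higher, and EPHB6 and EPHA1 were lower there by differences of -1.26 and -1.05. These values average the targets of a gene. NTRK2 differed by -0.99, and a probe of its first target had levels of 10.67, 7.08, 10.80 and 7.11 on replicates 1 to 4. That target's other probes had 11.46, 8.76, 11.55 and 8.82, and 8.72, 7.94, 7.23 and 7.63. The neurofilament gene NEFM, chosen as a marker of the neuronal genes seen in this line, had levels of 13.57 and 13.09 on replicates 1 and 3 and of 8.32 and 8.08 on 2 and 4. The labels give no difference between these arrays, and its part in the receptor values was not tested.

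For the labelled cell type, 8 kidney and neuronal genes were read, a list chosen with earlier results of these data known, so that its count of 6 detected genes is no test of the label. Vimentin (VIM) lay at 5.26 ± 0.64 log2 units, the adhesion gene CDH2 at 4.59 ± 0.73 and the neurofilament gene NEFL at 4.01 ± 0.56. The kidney transcription factors PAX2 and PAX8 were below the baseline on all 4 arrays, at -1.63 ± 0.74 and -3.12 ± 0.90. NEFM counted as detected with a mean of 0.66 ± 3.08 from 2 arrays.

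The count of detected receptors turned on 2 control genes. SPATA5 and SPATA13 lay near the baseline, at -0.13 ± 0.15 and -0.38 ± 0.19 log2 units, whereas the other 8 controls lay between -3.58 and -2.85. Without these 2 the mean baseline fell from 10.10 to 7.78 and the number of detected receptors rose from 26 to 40 of 50. With 3 SD in place of 2 SD the baseline was 11.42 and the number 14. A change of the baseline moves all genes of an array together. The shares of all named genes above these other baselines are not given here, so these counts have no background beside them. The 14 receptors from IGF1R to MET in the order of distance kept a mean distance above 0 under every setting that recomputes it, and 10 receptors kept one below 0.

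**Figure D5:**
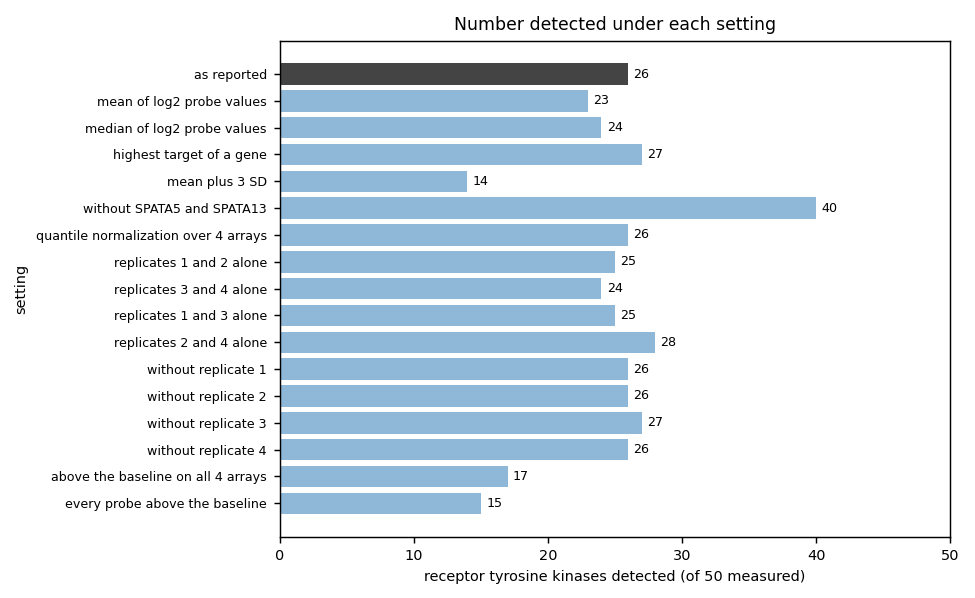
Number of receptors detected, of 50 measured (horizontal axis, bars from 0), as reported and under each alternative setting. The bars run from 14 with a baseline of mean plus 3 SD to 40 without SPATA5 and SPATA13, and the 4 settings that leave out 1 replicate give 26 or 27.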

How the data were processed

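Total RNA of 4 untreated HEK293 cultures was copied from an oligo(dT) primer into double-stranded cDNA. The cDNA was labelled with Cy3 and hybridised in 1 colour to NimbleGen arrays of 71998 probes for 24000 targets. The authors scanned the arrays, extracted intensities with the maker's software and deposited 1 log2 value per probe and array, and RMA is named in the submitters' processing notes. Ranked from low to high, the values of replicates 1 and 2 matched to within 0.01 for 99.97% of probes, those of 3 and 4 for 99.99%, and those of 1 and 3 for 1.23%, as would result if each pair had been quantile normalized alone. The step that did this is not given in the sources used here. No 2 arrays shared more than 8 identical probe values.

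Probe accessions were matched without versions to RefSeq gene names (GRCh38.p14), which named 19122 targets for 17214 genes. The probes of a target were averaged on the linear scale before the log2 step, and the targets of a gene on the log2 scale. Of the receptors 42 had 1 target and 8 several, 62 targets and 186 probes in all. Detection used the study's rule (mean plus 2 SD of the controls). Distances were tested against 0 with a one-sided test in limma 3.58 (R 4.3), Benjamini-Hochberg adjusted over 17214 genes at 0.05, and tables were made with pandas 2.3 in Python 3.11. The prior degrees of freedom were infinite, so every gene took a standard error of 0.351. A shift of the baseline moves all genes of an array together, so the tests are not independent. With 4 arrays the smallest p of an exact one-sided test by sign flips is 0.0625. The limma script was tested on simulated data with independent noise of the same SD in all genes. Such data lack the shifts that genes of an array share, so the simulation does not give the error rate of these tests. The number of arrays limits the precision.

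The receptors, pathway lists and markers were chosen with earlier results of these data known. All receptors could be named. A pathway gene was named where it is a ligand or co-receptor of a receptor described beside it, one of the 3 of its list farthest above the baseline on all arrays, or in a list's minority of 5 or fewer. A gene that this rule allows is not reported here. Alternatives changed the summary of probes and targets, the baseline, the normalization, the limma prior and the arrays used.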

Additional observations from a re-analysis of the deposited data

Results flagged for a closer look

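In 97 receptors and pathway genes the highest and lowest distance of the 4 arrays was compared with that of the nearest other array. In 4 genes the gap's share of the whole range was above Dixon's limit for 4 samples. Chance marks about 1 in 20 genes so tested. TYRO3 had a low distance on replicate 3, of 1.63 log2 units, with a gap of 0.911 of the range. Its levels without the baseline were 11.73, 12.24, 12.32 and 12.64 on replicates 1 to 4, so its level was not low there. MUSK had a high distance on replicate 4, of -3.14, with a gap of 0.843. Its levels were 5.66, 6.24, 6.91 and 7.18, also highest on replicate 4. AGRN had a high distance on replicate 1, of 3.84, with a gap of 0.924, and EFNA1 one of 1.00 on replicate 1, with a gap of 0.857. The baseline was lowest on replicate 1, at 9.47, and highest on replicate 3, at 10.69, and distances carry these shifts. Their part in the gaps was not tested. TYRO3 and AGRN were above the baseline and MUSK below it on all 4 arrays, while EFNA1 was above it by 0.03 to 0.17 on the other arrays.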

How the results depend on the processing

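The number of detected receptors was 26 and moved to 14 with a baseline of mean plus 3 SD, to 40 without SPATA5 and SPATA13, to 17 when all 4 arrays and to 15 when every probe had to be above the baseline. It was 23 to 28 under the other settings, with 26 to 27 when 1 replicate was left out. The number called by limma was 17 and moved to 9 with 3 SD and to 39 without SPATA5 and SPATA13, and it was 14 to 17 when 1 replicate was left out. The baseline of 10.10 log2 units moved to 11.42 and 7.78 under those settings and was 9.91 to 10.32 when 1 replicate was left out. Of the 50 receptors 19 had the same sign and the same limma call under all settings, and 26 changed sign under at least 1. Mean distances in log2 units on the other side of the baseline were as follows. The cause was not tested. With the mean of log2 probe values they were EGFR -0.039, ERBB4 -0.12, KDR -0.39, FLT4 0.088, FGFR1 -0.14, FGFR3 -0.17, EPHA5 0.091, EFNA1 -0.53, EFNA3 -0.088 and NRP2 -0.073. With the median they were EGFR -0.51, KDR -0.61, FGFR1 -0.27, DDR2 0.070, IGF2 -0.18, EFNA1 -1.42 and NRP2 -0.16. With 3 SD they were EGFR -1.11, ERBB4 -1.19, FLT3 -0.40, FLT1 -1.11, KDR -1.02, FGFR1 -1.04, FGFR2 -0.77, FGFR3 -1.06, FGFR4 -0.91, ROR2 -0.88, EPHA4 -0.38, EPHB2 -0.56, NRG4 -1.04, IGF2 -1.23, KITLG -0.84, VEGFA -0.081, VEGFC -0.63, FGF9 -0.28, WNT5A -0.80, GAS6 -0.045, PDGFC -0.15, EFNA1 -1.001, EFNA3 -0.9965, GFRA1 -0.65, NGFR -0.28 and NRP2 -0.90. Without SPATA5 and SPATA13 they were ERBB3 1.14, INSRR 0.062, CSF1R 1.53, FLT4 2.17, MST1R 1.12, AXL 0.74, EPHA1 0.67, EPHA3 1.78, EPHA5 2.13, EPHB1 1.82, EPHB3 0.55, EPHB6 0.86, RET 0.64, DDR2 2.07, SHC3 0.99, GAB1 1.38, GRB7 1.94, PIK3CD 1.63, RPTOR 1.68, GFRA2 1.25 and GFRA3 0.73. The settings with replicates 1 and 3 alone or 2 and 4 alone were chosen after seeing the data. On replicates 1 and 3 they were EGFR -0.20, ERBB4 -0.069, EPHA5 0.23, NRG4 -0.37, WNT5A -0.18 and GRB7 0.15, on 2 and 4 FLT4 0.20, EPHA3 0.27 and IGF2 -0.85, on 3 and 4 FLT1 -0.16, KDR -0.40, NRG4 -0.024, KITLG -0.31 and WNT5A -0.18, and on 1 and 2 FGFR1 -0.0016. With the highest target of a gene EPHA3 was 0.63. When 1 replicate was left out FLT4 ran from -0.36 to 0.061, IGF2 from -0.35 to 0.50 and NRG4 from -0.040 to 0.59. The EPHB2 call was also lost with quantile normalization over 4 arrays (limma adjusted p 0.0517) and with an intensity trend and robust prior (0.0638). With 3 SD the calls of KIT, MET, TYRO3, MERTK, EPHA7, HBEGF, NRG3, VEGFB, EFNB1 and LRP4 were lost. On replicates 3 and 4 alone those of FLT3, EPHA4, EPHB2, VEGFA, FGF9, GAS6, PDGFC and NGFR were lost, and with the mean or the median of log2 probe values those of NRG3 and GAS6. On replicates 1 and 3 alone the calls of FLT3, EPHA4, EPHB2, NRG3, VEGFA, FGF9, GAS6 and EFNB1 were lost. On 2 and 4 alone those of EPHB2 and NGFR were lost. Calls were also gained, many of them without SPATA5 and SPATA13. With the median FGFR3, FGFR4 and VEGFC passed limma, with the mean VEGFC and GFRA1, and with the highest target EGFR and NRP2. On replicates 1 and 2 alone KDR, FGFR2, KITLG, VEGFC and WNT5A passed, and on 2 and 4 alone FGFR4, ROR2, NRG4, VEGFC, WNT5A and GFRA1. Spot background and saturation were not examined. No paired analysis was possible because the series holds 1 group.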

Other observations

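Of 7 receptors known to have an impaired kinase, 4 were detected, namely PTK7, ROR1, ROR2 and RYK, and ERBB3, EPHA10 and EPHB6 were not, a share of 57.1% against 52.7% of all named genes. Single probes of 1 receptor lay apart by a median of 1.88 log2 units from the lowest to the highest, against 1.53 for all named genes. NTRK2 had 1 target that stood at 1.20, -1.85, -0.01 and -2.28 on replicates 1 to 4, with a mean of -0.74 ± 1.62. It was higher on replicates 1 and 3 than on 2 and 4. The other targets of NTRK2 had means of -3.16 and -3.66. The second target of ERBB3 had a mean of -0.01 ± 0.91 and was above the baseline on 3 arrays, while the first had a mean of -2.35 ± 0.93.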
